A study of Mus musculus with 12 samples.

Results

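The ATP-binding cassette (ABC) transporter genes were followed through aggregate culture of bipotential mouse embryonic liver (BMEL) cells. Members were the genes whose symbol is Abc followed by a subfamily letter from a to g and a number, with Abcg5 and Abcg8 left out, and the array table held 43 of them among 18193 genes. Where a gene had several probe sets, the one with the highest mean stood for it. Of the 43 genes, 38 reached a log2 level of 5 on at least 2 arrays and were tested. Abca13, Abca14, Abca16 and Abcd2 stayed below 5 on all 12 arrays, and Abca6 reached 5.05 on 1 array, so these 5 genes were not tested.

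The cells were 2 BMEL lines, 9A1 and 14B3, isolated from liver at day 14 post coitum of embryos of a CBA/J x C57Bl/6J cross, with no transgene named in the labels. Each line was grown in basal culture, as aggregates for 1 day and as aggregates for 5 days. The labels describe 2 biological replicates of each of the 6 combinations, 12 Affymetrix arrays in all, and this small number sets how precise each value can be. The 2 lines are the only cells behind these values, and p-values measure the spread between cultures of these lines.

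ABC proteins bind and hydrolyse ATP, and most of them use it to move a substrate across a membrane. In hepatocytes, members in the canalicular membrane secrete bile salts, phospholipid, conjugated organic anions and drugs into bile, while members in the basolateral membrane return conjugates to blood. Others load cholesterol onto lipoproteins, import fatty acids into peroxisomes or serve mitochondria, and the ABCE and ABCF proteins have no membrane part and act on ribosomes.

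All values below are deposited log2 levels, and each difference between cultures or lines is a log2 value given with its limma standard error. Array values are listed as 9A1 replicate 1, 9A1 replicate 2, 14B3 replicate 1 and 14B3 replicate 2. A gene is called when its limma p-value, adjusted over 15781 tested genes by the method of Benjamini and Hochberg, is under 0.05. RMA levels of different probe sets are not comparable, so no gene is ranked above another by its level. Because whole cultures were measured, a larger share of cells expressing a gene and more RNA per cell cannot be told apart.

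The epithelial liver markers Krt8, Krt18, Hnf4a, Foxa2 and Cdh1 were above 5 on every array, and their mean lay between 11.8 and 12.6 throughout. Single genes of this list moved in opposite directions. Foxa2 lay at 8.11 to 9.54 at 5 days against 10.3 to 10.7 in basal culture, and Krt18 at 12.4 to 13.1 against 13.7 to 14.0. Hnf4a was called higher at 5 days, by 0.94. Of the markers of blood, endothelial cells and stellate cells or fibroblasts, 2 genes in each list stayed below 5 on all arrays, and the list means lay between 4.82 and 5.92. Some single markers were above 5. Of the 6 stellate and fibroblast markers, 4 (Des, Acta2, Pdgfrb and Col1a1) were above 5 on all arrays, as was the endothelial marker Kdr. The macrophage marker Cd68 lay between 5.85 and 6.39 at 5 days, against 6.95 to 8.13 in basal culture, and the endothelial marker Cdh5 lay at 7.65 on basal 9A1 replicate 1, against 4.64 to 5.65 on the other arrays. Basal 9A1 replicate 1 stood apart from the other basal arrays. It scored -11.7 on the first principal component of all tested genes, against 69.5 to 78.8 for the other basal arrays, and the array most like it was replicate 1 of 14B3 at 5 days. The mean of 8 hepatocyte markers lay between 10.6 and 11.5 at 5 days and between 6.60 and 9.91 in basal culture, and that of 5 absorptive gut markers between 12.2 and 12.8 at 5 days and between 8.42 and 11.3 in basal culture. In both lists the highest basal value was that of basal 9A1 replicate 1. The hepatocyte marker Tat hardly moved, at 6.07 to 6.16 in basal culture and 6.15 to 6.32 at 5 days. Biliary markers went both ways. Epcam lay at 12.9 to 13.2 at 5 days against 6.86 to 12.6 in basal culture, and Krt7 at 9.61 to 11.1 against 10.7 to 12.7. The part of these markers in the changes of ABC genes was not tested. Day 1 9A1 replicate 2 had the narrowest distribution of levels, with an SD of 2.13. Among the 38 tested ABC genes, 7 differed by more than 1 log2 unit between the basal 9A1 replicates, against 0 between the basal 14B3 replicates, and the SD of that difference was 1.25 and 0.248. What sets these arrays apart was not tested, and both were kept.

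At 5 days against basal culture, 18 of the 38 tested ABC genes were called, 12 higher and 6 lower. This is 47.4% of the members, and 35.4% of all genes tested were called in the same comparison, 16.9% higher and 18.5% lower. At 1 day 5 members were called, 4 higher and 1 lower, which is 13.2% of the members against 14% of all genes. Between 1 and 5 days 14 members were called, 11 higher and 3 lower, which is 36.8% against 21.7% of all genes. The counts and percentages of both 5 day comparisons include Abca8a, which reached the floor at 5 days alone, so its call adds nothing to them. Without it 11 members were higher against basal culture and 10 against 1 day. The median change of the tested members was 0.10 at 5 days, 0.01 over all genes, and 0.07 against 0.03 at 1 day. All 18 genes called at 5 days changed in the same direction in both lines. The shares over all genes, 16.9% higher and 18.5% lower, also apply to the 5 day counts of role groups and gene lists below.

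The counts at 5 days depended on single arrays in the lower direction. The fewest lower calls came when either basal 14B3 array, either day 5 14B3 array or day 5 9A1 replicate 2 was left out. In each of these settings the share of all genes called, in either direction, was also below that of the main model. Higher calls varied less. Without basal 9A1 replicate 1 and day 1 9A1 replicate 2 together, 14 members were called higher and 7 lower. In that setting 52.1% of all genes were called.

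**Figure D1:**
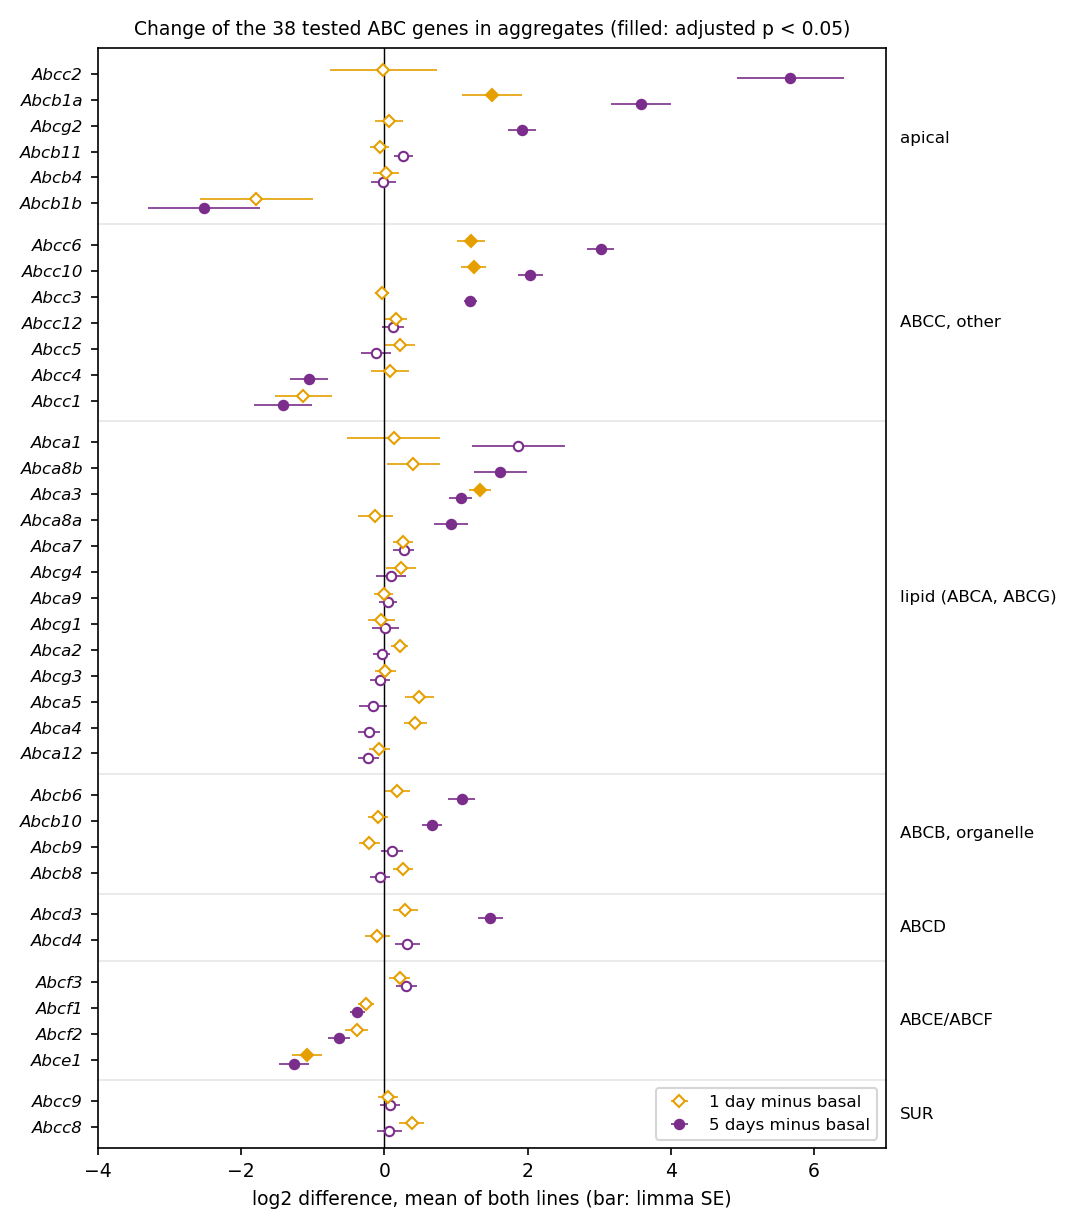
Log2 differences from basal culture for the 38 tested ABC genes, averaged over both lines, with limma standard errors as bars, at 1 day (diamonds) and 5 days (circles), grouped by role; filled symbols are called genes. Abcc2 (5.67) and Abcb1a (3.58) lie furthest to the right at 5 days, and Abcb1b (-2.52) furthest to the left.

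The canalicular and apical exporters held the largest rises and the largest fall. Of 6 genes, 3 were called higher at 5 days (Abcc2, Abcb1a and Abcg2) and 1 lower (Abcb1b), while Abcb11 and Abcb4 were not called. Promoters of 3 of them are shown because Abcb1a and Abcb1b, neighbours on chromosome 5, were called in opposite directions and Abcc2 had the largest change of the family. Abcb1a lies at chr5:8567091-8748575 and Abcb1b at chr5:8798147-8866314 in GRCm38, 49571 bases apart, followed by Abcb4 at chr5:8893614-8959226, and Abcc2 lies at chr19:43782308-43838332. The sequences are from RefSeq for GRCm38.p6, plus strand, 5′ to 3′, and run from 250 bases before to 50 after the annotated gene start, which may not be the start used in these cells. They cover chr5:8566841-8567140, chr5:8797897-8798196 and chr19:43782058-43782357. Capitals mark matches, on either strand, to CCAAT, to GGGCGG (a GC box) or to AGGTCA, the core hexamer of many nuclear receptor sites.
Abcb1a: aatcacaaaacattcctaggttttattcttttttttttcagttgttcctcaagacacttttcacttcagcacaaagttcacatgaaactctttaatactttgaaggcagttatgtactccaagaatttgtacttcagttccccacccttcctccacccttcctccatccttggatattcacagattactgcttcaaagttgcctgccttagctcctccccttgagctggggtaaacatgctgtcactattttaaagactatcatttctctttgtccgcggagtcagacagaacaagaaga
Abcb1b: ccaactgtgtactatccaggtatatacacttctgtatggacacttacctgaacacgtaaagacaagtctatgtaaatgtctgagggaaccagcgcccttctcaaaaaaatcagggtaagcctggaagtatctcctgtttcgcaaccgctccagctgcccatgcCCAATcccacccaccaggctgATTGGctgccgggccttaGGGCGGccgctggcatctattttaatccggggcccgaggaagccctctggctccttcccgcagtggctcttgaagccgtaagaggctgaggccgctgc
Abcc2: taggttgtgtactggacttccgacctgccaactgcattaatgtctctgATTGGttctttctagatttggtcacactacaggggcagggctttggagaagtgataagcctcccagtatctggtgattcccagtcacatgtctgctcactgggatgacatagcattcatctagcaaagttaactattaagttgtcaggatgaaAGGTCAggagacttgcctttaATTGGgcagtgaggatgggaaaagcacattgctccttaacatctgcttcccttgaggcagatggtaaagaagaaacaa

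The Abcb1b sequence held 2 CCAAT matches, 1 of them reversed, and 1 GC box, and its GC content was 55%. The Abcb1a sequence had a GC content of 40.3% and held 0 matches to these or to the other motifs searched, an AP-1 motif, a short HNF1 motif and a TATA box. The Abcc2 sequence held 2 reversed CCAAT matches and 1 AGGTCA, with a GC content of 45%. Over 32851 mouse promoters of the same length, 37.4% held CCAAT, 35.7% GGGCGG and 16.3% AGGTCA. The AP-1 motif (TGANTCA) was found in 7.81% of them. The HNF1 motif (GTTAAT) was found in 7.1% and the TATA box (TATAAA) in 13.6%. Of 39 promoter entries found for 33 of the 43 members, 13 held CCAAT, 21 GGGCGG and 7 AGGTCA. A match describes the letters and is no binding site, and the absence of one says only that these letters are not in this window.

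Abcc2 encodes MRP2, which exports bilirubin glucuronides and other conjugates into bile. It lay at 9.64, 5.24, 4.75 and 5.11 in basal culture, at 6.29, 6.47, 6.19 and 5.72 at 1 day and at 11.9, 11.8, 11.7 and 11.9 at 5 days. The 4 arrays at 5 days were above every other array, and basal 9A1 replicate 1 was the only earlier array above 7. The change at 5 days was 5.67 ± 0.75, a 50.9-fold difference (adjusted p = 0.000546). The other 3 basal arrays lay between 4.75 and 5.24, near the floor of 5, where background may set the value. It was 6.77 without basal 9A1 replicate 1 and 4.57 without replicate 2. From 1 to 5 days it rose by 5.69 ± 0.75 (adjusted p = 0.00123). At 1 day the change was -0.02 ± 0.75, but basal 9A1 replicate 1 decided this value. Without it the 1 day change was 1.09 and called (adjusted p = 0.00258), with the day 1 arrays at 5.72 to 6.47 above the remaining basal arrays, and without replicate 2 it was -1.12 and also called (adjusted p = 0.00387). The direction at 1 day is thus not settled. The single probe set of Abcc2 is of a type that can match more than 1 transcript. Those used for Abce1, Abcf1 and Abcg4 are of the same type.

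Abcb1a and Abcb1b encode the rodent P-glycoproteins, which export many lipophilic drugs. Abcb1a lay at 12.2, 9.74, 9.48 and 10.1 in basal culture, at 12.0, 12.2, 11.6 and 11.6 at 1 day and at 13.8, 13.9, 14.0 and 14.1 at 5 days. The 5 day arrays were above all others, and at 1 day only basal 9A1 replicate 1 overlapped. The change was 3.58 ± 0.42 at 5 days (12.0-fold, adjusted p = 0.000306) and 1.51 ± 0.42 at 1 day (adjusted p = 0.0430). A second probe set gave 3.20 at 5 days. The 5 day change was 4.19 and 2.98 without basal 9A1 replicate 1 and replicate 2, called both times. The 1 day change was 2.11 and 0.91 without them and was called both times, but it missed the threshold when any of the other 10 arrays was left out, up to an adjusted p of 0.158. It also missed with median centring (0.0557), array weights (0.0561), the replicate block (0.0582) and the model fitted only to the groups compared (0.116).

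Abcb1b lay at 6.20, 9.52, 9.38 and 9.02 in basal culture, at 8.15, 6.07, 6.65 and 6.11 at 1 day and at 7.52, 4.98, 5.77 and 5.79 at 5 days. The 3 other basal arrays were above every 5 day array, and basal 9A1 replicate 1 lay among the 5 day arrays. The change at 5 days was -2.52 ± 0.79, 5.73-fold lower (adjusted p = 0.0334), and at 1 day it was -1.79 ± 0.79, not called (adjusted p = 0.186). Without basal 9A1 replicate 1 the 1 day change was -2.62, and the 5 day change was -3.35. Without basal 9A1 replicate 2 it was -1.69 and no longer called (adjusted p = 0.0846), and the call was also lost without either basal 14B3 array, either day 1 14B3 array, either day 5 14B3 array or day 5 9A1 replicate 2 (highest adjusted p 0.124), and in the model fitted only to the groups compared (0.0547). A second, dimmer probe set of Abcb1b, with a mean of 5.02, changed by 0.10 and was not called, and the mean of both probe sets changed by -1.21. The neighbouring genes thus had changes of opposite sign in each line, with 2.92 for Abcb1a and -1.61 for Abcb1b in 9A1, and 4.25 and -3.42 in 14B3. The fall of Abcb1b was called in 14B3 (adjusted p = 0.0497) and not in 9A1 (adjusted p = 0.409).

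Abcg2, the breast cancer resistance protein of apical membranes, lay at 11.3, 10.4, 10.6 and 10.5 in basal culture, at 10.3, 10.7, 11.2 and 10.9 at 1 day and at 12.7, 12.7, 12.5 and 12.6 at 5 days. The arrays at 5 days were above the rest, and those at 1 day overlapped the basal ones. It rose by 1.92 ± 0.20 at 5 days (3.79-fold, adjusted p = 0.000167) and changed by 0.07 at 1 day.

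The exporters of bile salts and phospholipid were not called. Abcb11, the bile salt export pump, lay between 5.09 and 5.87 on all arrays and changed by 0.27 ± 0.13 at 5 days (adjusted p = 0.169). Its 14B3 arrays at 5 days, at 5.84 and 5.87, were its highest. The call was made without either day 1 9A1 array (adjusted p = 0.0424 and 0.0408) and by the model fitted only to the groups compared (0.0304), each with the same change of 0.27. Abcb4, which flips phosphatidylcholine into bile, lay between 6.90 and 7.53 on all arrays and changed by -0.01 ± 0.18 (adjusted p = 0.973).

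**Figure D2:**
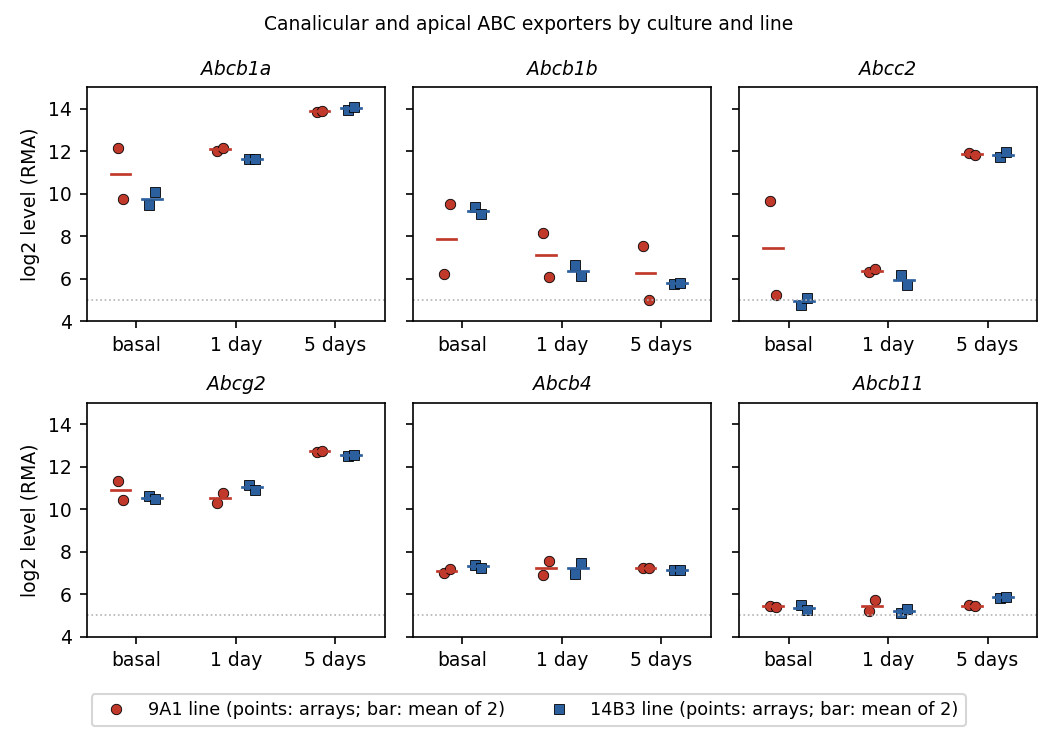
Log2 level of the 6 canalicular and apical exporter genes in basal culture and after 1 and 5 days as aggregates, for 9A1 (circles) and 14B3 (squares); points are arrays, short bars the mean of 2 and the dotted line the floor of 5. Abcc2 lies between 11.7 and 11.9 on all 4 arrays at 5 days, and the basal 9A1 array at 9.64 stands apart from the basal arrays at 4.75 to 5.24.

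Genes that feed, regulate or place these exporters moved in part. Of 11 tested genes of bile acid synthesis and conjugation, 5 rose at 5 days and 0 fell. They were Scp2 (2.66 ± 0.33), Acox2 (2.52 ± 0.47), Amacr, Hsd3b7 and Akr1d1, and the first 3 shorten side chains in peroxisomes. The Hsd3b7 call was lost when single arrays were left out. Cyp7a1, the rate-limiting enzyme of the classical pathway, lay between 4.83 and 5.70 and changed by 0.10. Of 8 tested bile acid and organic anion carriers, 3 rose, namely Slc51a (3.82 ± 0.65) and Slc51b (3.27 ± 0.35), which form a basolateral bile acid exporter, and Slc10a2, the apical uptake carrier of ileum and bile duct, with 4.28 and 3.97 in 14B3 and 5.22 and 5.44 in 9A1 at 5 days. Slc51a and Slc51b lay at 10.6 and 8.60 on basal 9A1 replicate 1, their highest basal values. Slc10a2 reached 5 on the day 5 9A1 arrays alone, so it was tested only through the culture where it is high. Its size of change is not given, and its call adds nothing to the count of carriers that rose.

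Of 16 nuclear receptors and related factors known to act on ABC genes, 9 rose at 5 days and 0 fell, with Ppara at 3.13 ± 0.52 and Nr1i2, a xenobiotic receptor, at 2.97 ± 0.45. The call of Nfe2l2, 1 of the 9, was lost when single arrays were left out. Of 15 genes for trafficking and scaffolding of the canalicular membrane, 8 rose and 5 fell. Atp8b1, an aminophospholipid flippase of that membrane, rose by 3.34 ± 0.78 and Myo5b, a motor of apical recycling, by 1.90 ± 0.45. Basal 9A1 replicate 1 stood apart for both, with Atp8b1 at 8.70 where the 3 remaining basal arrays had 4.28 to 5.69, and Myo5b at 10.7 where they had 8.16 to 8.78. The changes were 4.44 and 2.23 for Atp8b1 and 2.55 and 1.25 for Myo5b without basal 9A1 replicate 1 and replicate 2, called each time. The calls of 3 of the 8 rises (Rab11a, Vipas39 and Stxbp2) were lost when single arrays were left out. Rdx, whose product radixin anchors MRP2 to actin in mouse hepatocytes, fell by 2.23 ± 0.33, and its relatives Msn and Ezr fell by 2.15 ± 0.35 and 0.69 ± 0.08. Rdx lay at 8.71, 8.18, 9.25 and 9.56 at 5 days, against 9.74, 11.5, 11.7 and 11.6 in basal culture, while Abcc2 stood at 11.7 to 11.9 on the same 5 day arrays. The radixin and Abcc2 values thus moved in opposite directions, and no array overlapped between the cultures for either gene. These lists were chosen with earlier results known and are descriptions.

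Among the other ABCC exporters, 3 of 7 tested genes rose at 5 days (Abcc6, Abcc10 and Abcc3), 2 fell (Abcc1 and Abcc4), and Abcc5 and Abcc12 were not called. Abcc5 changed by -0.12, and by -0.39 with a call (adjusted p = 0.0238) when basal 9A1 replicate 1 was left out. Abcc6, a liver exporter whose loss causes ectopic mineralisation in mice and humans, lay at 6.72, 5.94, 5.72 and 6.05 in basal culture, at 7.10, 7.50, 7.32 and 7.35 at 1 day and at 9.37, 9.31, 8.88 and 8.95 at 5 days. The 3 cultures did not overlap. It rose by 1.21 ± 0.19 at 1 day (adjusted p = 0.00420) and by 3.02 ± 0.19 at 5 days (8.12-fold, adjusted p = 2.97e-05), with 3.01 in 9A1 and 3.03 in 14B3.

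Abcc10, an exporter linked to drug resistance, also formed 3 separate groups, with 7.02, 6.37, 5.64 and 5.93 in basal culture, 7.35, 7.57, 7.58 and 7.44 at 1 day and 8.29, 8.28, 8.41 and 8.14 at 5 days. Its change was 1.25 ± 0.17 at 1 day (adjusted p = 0.00245) and 2.04 ± 0.17 at 5 days (4.11-fold, adjusted p = 7.2e-05). Its probe sets disagreed, since the dimmer of the 2 changed by -0.05 at 5 days and the mean of both by 0.99. Abcc3, a basolateral exporter of glucuronides, lay at 11.6, 11.6, 11.2 and 11.4 in basal culture, at 11.6, 11.7, 11.2 and 11.2 at 1 day and at 12.8, 13.0, 12.3 and 12.4 at 5 days. It changed by -0.03 ± 0.09 at 1 day and rose by 1.20 ± 0.09 at 5 days (2.29-fold, adjusted p = 4.71e-05), and the 5 day arrays were above all others.

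Abcc1, which exports glutathione conjugates such as leukotriene C4, lay at 9.20, 10.9, 11.0 and 10.8 in basal culture, at 9.75, 8.96, 9.42 and 9.25 at 1 day and at 8.38, 9.73, 9.11 and 9.02 at 5 days. Basal 9A1 replicate 1 lay inside the range of the 5 day arrays and the other basal arrays above it. At 1 day Abcc1 changed by -1.13, not called by limma (adjusted p = 0.101), and by -1.56 without basal 9A1 replicate 1. The change at 5 days was -1.41 ± 0.40 (adjusted p = 0.0221), and a second probe set gave -1.46. It was -1.84 and -0.98 without basal 9A1 replicate 1 and replicate 2, called both times, and the call was lost without either basal 14B3 array, either day 5 14B3 array or day 5 9A1 replicate 1 (highest adjusted p 0.0776). Abcc4, a basolateral exporter of cyclic nucleotides and bile salts, lay at 10.5, 11.4, 10.9 and 11.1 in basal culture, at 11.5, 10.5, 11.1 and 11.0 at 1 day and at 9.79, 9.25, 10.2 and 10.4 at 5 days. The 5 day arrays were below all others. Abcc4 fell by 1.05 ± 0.27 at 5 days (adjusted p = 0.0132), a call lost without day 5 9A1 replicate 2 (adjusted p = 0.0546).

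Both sulfonylurea receptors, Abcc8 and Abcc9, which are regulatory subunits of potassium channels and not exporters, were not called in any of the 3 culture comparisons. Abcc8 lay between 6.33 and 7.10 and changed by 0.07 at 5 days (adjusted p = 0.845). A second, dimmer Abcc8 probe set, with a mean of 5.00, was called at 1 day (0.49, adjusted p = 0.0235) and from 1 to 5 days (-0.51, adjusted p = 0.0130). The mean of both was also called, with 0.43 (adjusted p = 0.0444) and -0.41 (adjusted p = 0.0387).

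**Figure D3:**
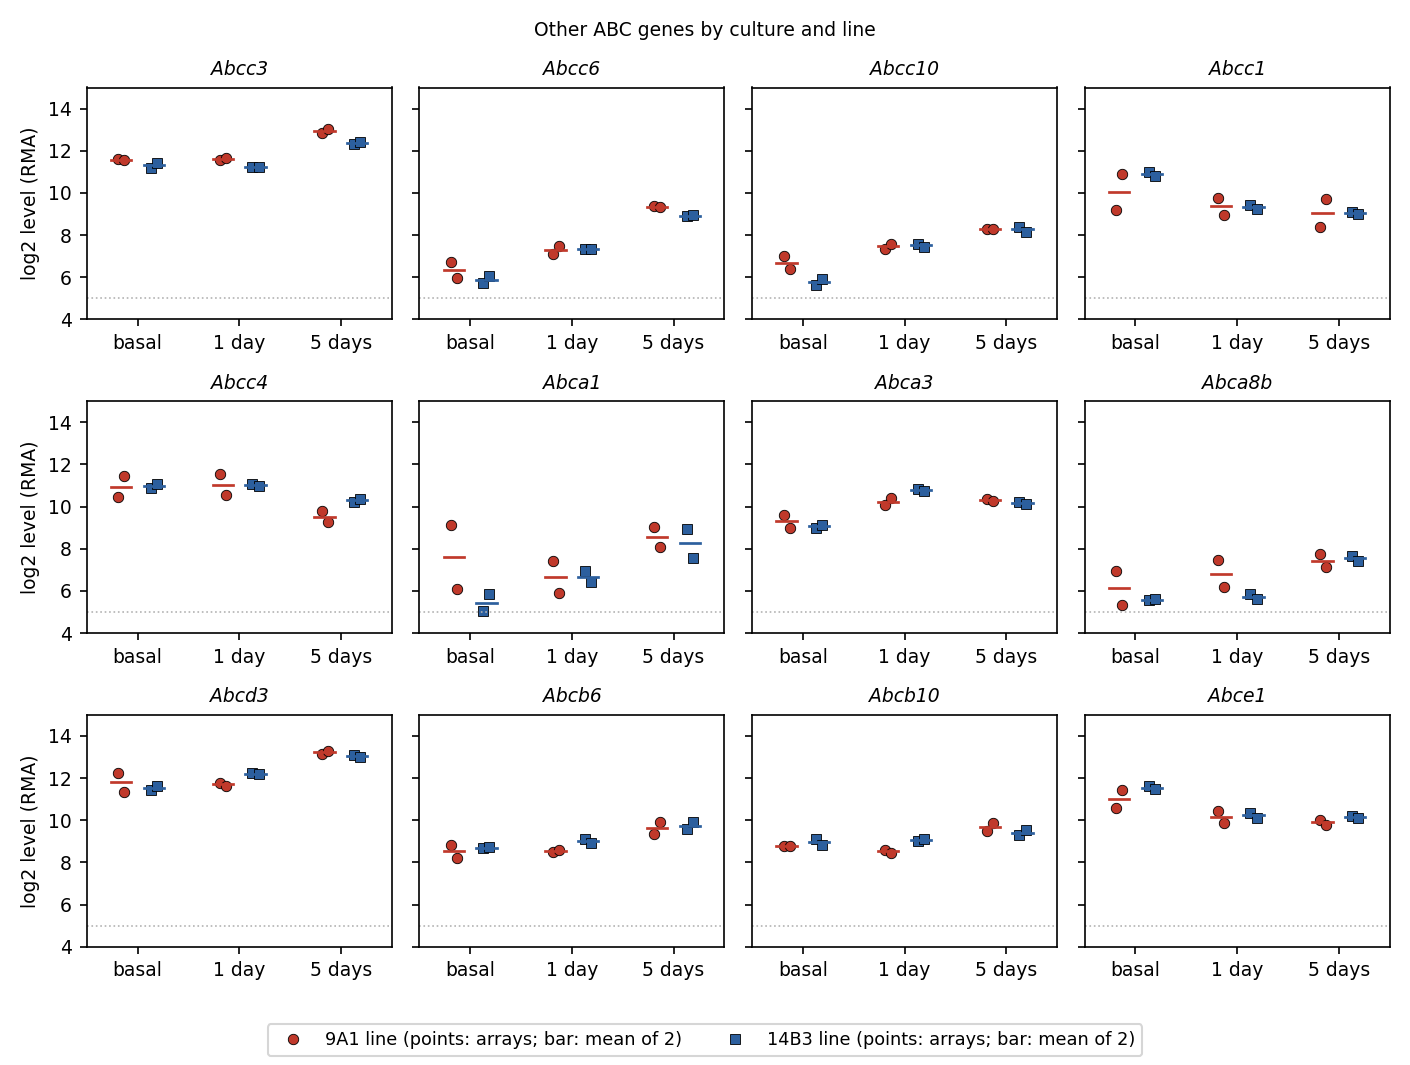
Log2 level of 12 other ABC genes by culture and line, drawn as for the apical exporters, with points as arrays, short bars as the mean of 2 and the dotted line at 5. Abcc6 rises at each step to 8.88 to 9.37 at 5 days, while Abce1 is lower at 1 and 5 days than on any basal array.

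Of the 17 lipid transporters of the ABCA and ABCG subfamilies on the array, 13 were tested, and 3 were higher and 0 lower at 5 days. Over all genes tested 16.9% were higher and 18.5% lower. Without Abca8a, described below, 2 lipid transporters were higher, a share near that background. Abca3, a lamellar body phospholipid transporter best known from lung surfactant, lay at 9.61, 9.00, 9.00 and 9.12 in basal culture, at 10.1, 10.4, 10.8 and 10.8 at 1 day and at 10.4, 10.3, 10.2 and 10.1 at 5 days. Its arrays at both times were above the basal ones. The change was 1.33 ± 0.16 at 1 day (adjusted p = 0.00107) and 1.06 ± 0.16 at 5 days (2.09-fold, adjusted p = 0.000888), and from 1 to 5 days it was -0.27 (adjusted p = 0.288). It was the 1 member called higher at both times that was not called again between them.

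Abca8b and Abca8a, neighbours in a cluster on chromosome 11, were called higher at 5 days. Abca8b lay at 6.94, 5.35, 5.55 and 5.63 in basal culture, at 7.47, 6.17, 5.84 and 5.63 at 1 day and at 7.74, 7.11, 7.67 and 7.44 at 5 days. Its 5 day arrays were above the basal ones, and it rose by 1.62 ± 0.37 (3.08-fold, adjusted p = 0.00836). Abca8a, named here after its values were seen, lay at 6.89, 5.57, 5.25 and 4.91 at 5 days and below 5 on the other 8 arrays. Its change of 0.93 ± 0.24 (adjusted p = 0.0146) was called in 9A1 (1.45) and not in 14B3 (0.41), and background limits its size. It reached 5 on 3 arrays, all at 5 days, so it entered the test only through the culture where it is high, and its call adds nothing to the counts of rises. The counts of rises without it are 11 members and 2 lipid transporters at 5 days against basal culture and 10 members from 1 to 5 days, and at a floor of 6 it was not tested.

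Abca1, which loads cholesterol onto apolipoprotein A1, missed the threshold at 5 days. It lay at 9.13, 6.11, 5.04 and 5.84 in basal culture, at 7.40, 5.90, 6.94 and 6.40 at 1 day and at 9.01, 8.09, 8.92 and 7.58 at 5 days. Basal 9A1 replicate 1 was the highest of all 12 arrays, and the other basal arrays were below every 5 day array. The change was 1.87 ± 0.65 (adjusted p = 0.0512). Without basal 9A1 replicate 1 it was 2.63 and called (adjusted p = 0.00198), and without replicate 2 it was 1.11. It was also called with the replicate block (0.0222), array weights (0.0342), quantile normalisation (0.0474) and a floor of 6 (0.0459). The array weights were equal within each pair of replicates, so they cannot weigh basal 9A1 replicate 1 below replicate 2. With basal 9A1 replicate 1 and day 1 9A1 replicate 2 left out together the change was 2.63. Dimmer probe sets gave 0.56 and 0.32. Abcg1, its partner in cholesterol efflux, lay between 5.57 and 6.35 and changed by 0.01 (adjusted p = 0.973).

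Abca4, the retinal flippase gene, and Abca5, a lysosomal member, were called lower at 5 days than at 1 day, each by 0.65, with adjusted p of 0.0194 and 0.0444. Both had their highest values on the day 1 14B3 arrays, at 6.90 and 6.97 for Abca4 and 8.74 and 8.24 for Abca5, and neither differed from basal culture at 5 days by the test (-0.21 and -0.16). The Abca4 call was lost without either day 1 14B3 array, either day 5 14B3 array or day 5 9A1 replicate 2 (up to 0.0834). The Abca5 call was lost without any 1 of 8 arrays, up to an adjusted p of 0.167, and with no filter, median centring, array weights or only the groups compared (0.0518 to 0.0911). Of 12 tested partners of cholesterol efflux and targets of the oxysterol receptor LXR, 4 rose and 2 fell at 5 days. Over all genes tested 16.9% were higher and 18.5% lower, and the share of the list that fell is near that background. Apoa1, the acceptor apolipoprotein, rose by 4.40 ± 1.20. It stood at 14.4 on basal 9A1 replicate 1, near the mean of 14.6 at 5 days, while every remaining basal array was below 10. Its change was 6.00 without basal 9A1 replicate 1 and 2.81 without replicate 2, and the call was lost when 1 of 4 arrays was left out, namely day 5 9A1 replicate 2, either day 5 14B3 array or basal 14B3 replicate 1 (up to an adjusted p of 0.0669). Scarb1, the HDL receptor, rose by 1.78 ± 0.30, and the lipid transfer protein genes Pltp and Npc2 fell by 2.09 ± 0.37 and 0.56 ± 0.09. The other 2 rises were in Lpcat3 and Srebf1, and the Srebf1 call was lost when single arrays were left out (up to 0.163).

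Of the organelle ABCB genes, 2 of 4 tested rose at 5 days and 0 fell. Abcb6, a porphyrin transporter, lay at 8.82, 8.23, 8.70 and 8.71 in basal culture, at 8.49, 8.61, 9.12 and 8.93 at 1 day and at 9.37, 9.91, 9.58 and 9.92 at 5 days. It rose by 1.08 ± 0.18 (2.11-fold, adjusted p = 0.00187), with the 5 day arrays above all others. Abcb10, of the inner mitochondrial membrane and named after its values were seen, lay at 9.50, 9.89, 9.28 and 9.53 at 5 days, against 8.80, 8.78, 9.09 and 8.84 in basal culture. It rose by 0.67 ± 0.14 (adjusted p = 0.00551), and a second probe set by 0.84, while another, dimmer one changed by 0.27 and was not called (adjusted p = 0.203). Abcb8, another mitochondrial member, lay between 9.53 and 10.2 and changed by -0.06 (adjusted p = 0.815), and Abcb9 was not called either. Of 12 tested genes of heme and iron-sulfur synthesis, 7 rose and 1 fell, with Iscu, a scaffold for iron-sulfur clusters, higher by 0.87 ± 0.12, Alas1, the first enzyme of heme synthesis, by 0.77 ± 0.15. The 1 fall was in Glrx5, which fell by 0.30 ± 0.10. When single arrays were left out, 2 of the 7 rises (Alas1 and Iscu) were called every time, and the Glrx5 call was lost (up to 0.151).

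Abcd3, the peroxisomal transporter of branched-chain fatty acids and bile acid intermediates, lay at 12.3, 11.3, 11.4 and 11.6 in basal culture, at 11.8, 11.6, 12.2 and 12.2 at 1 day and at 13.2, 13.3, 13.1 and 13.0 at 5 days. The 5 day arrays were above all others, and basal 9A1 replicate 1 was the highest of the rest. It rose by 1.48 ± 0.17 at 5 days (2.79-fold, adjusted p = 0.000321), with 1.44 in 9A1 and 1.52 in 14B3, and by 0.78 for the mean of its probe sets. Abcd4, of lysosomes, was not called. Of 12 tested genes of peroxisome biogenesis and beta-oxidation, 10 rose and 0 fell at 5 days. The calls of Pex3 and Slc27a2 among them were lost when single arrays were left out. Ehhadh, a peroxisomal beta-oxidation enzyme, rose by 4.02 ± 0.51, and Pex11a, which acts in peroxisome division, by 2.56 ± 0.30. Among the basal arrays Ehhadh stood at 7.30 on 9A1 replicate 1 and ran from 4.05 to 4.44 elsewhere.

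Of the 4 soluble ABCE and ABCF genes, 3 were called lower at 5 days and 0 higher, and the fourth, Abcf3, lay higher without being called. Abce1, which splits ribosomes after translation, lay at 10.6, 11.5, 11.6 and 11.5 in basal culture, at 10.5, 9.89, 10.3 and 10.1 at 1 day and at 10.0, 9.77, 10.2 and 10.1 at 5 days. Every aggregate array was below every basal array. It fell by 1.08 ± 0.21 at 1 day (adjusted p = 0.0101), the 1 member called lower then, and by 1.26 ± 0.21 at 5 days (2.39-fold lower, adjusted p = 0.00161). The changes were -1.30 and -1.48 without basal 9A1 replicate 1, both called. The 1 day call was lost when basal 14B3 replicate 1 or day 1 14B3 replicate 2 was left out, and with the mean of its probe sets (adjusted p = 0.130). That mean takes in a dim probe set, at 4.64, which was not tested by itself. The remaining probe set changed by -1.02 at 1 day and -1.16 at 5 days, both called.

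Abcf2 lay at 8.99, 9.10, 9.19 and 9.17 at 5 days, against 9.10, 9.78, 10.1 and 9.97 in basal culture, overlapping through basal 9A1 replicate 1 alone. It fell by 0.63 ± 0.16 (adjusted p = 0.0126), a call lost without basal 14B3 replicate 1 (0.0549). Abcf1, a translation initiation partner, lay at 10.2 on all 4 arrays at 5 days, against 10.3 to 10.7 in basal culture. It fell by 0.38 ± 0.11 (adjusted p = 0.0215), and the call was lost when any 1 of 6 arrays was left out (the basal 14B3 arrays and the 5 day arrays), up to 0.0855, and with the mean of its probe sets (0.207). Abcf3 lay at 9.10, 9.24, 9.13 and 9.20 at 5 days, against 8.79, 8.76, 8.82 and 9.08 in basal culture. The groups did not overlap, but the change of 0.31 ± 0.15 was not called (adjusted p = 0.152), while quantile normalisation of the deposited values gave an adjusted p of 0.0334.

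At 1 day the rises were those of Abcb1a, Abca3, Abcc10 and Abcc6, and the fall that of Abce1. With single arrays left out, higher calls were most numerous without day 1 9A1 replicate 1, and lower calls without basal 9A1 replicate 1. In both settings the share of all genes called, in either direction, was also above that of the main model. Lower calls were fewest when replicate 1 of basal 14B3, or replicate 2 of 14B3 at 1 day, was absent. There the share of all genes called was also below that of the main model. Without basal 9A1 replicate 1 and day 1 9A1 replicate 2 together, 8 were higher and 5 lower, with 34% of all genes called. From 1 to 5 days the 4 largest rises were in Abcc2, Abcb1a (2.07), Abcg2 (1.85) and Abcc6 (1.81), and the 3 falls in Abcc4 (-1.13, adjusted p = 0.0163), Abca5 and Abca4. The fewest falls were called when any 14B3 array of day 1 or day 5, or day 5 9A1 replicate 2, was left out. In each of these settings the share of all genes called from 1 to 5 days was also below that of the main model.

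Within 9A1, 13 members were called at 5 days against basal culture, 11 higher and 2 lower, with 15.2% of all genes called, 6.66% higher and 8.54% lower. The 11 include Abca8a. Within 14B3 the count was 15, 10 higher and 5 lower, against 26.7% of all genes, 12.6% higher and 14.1% lower. At 1 day 0 members were called by limma in 9A1 (5 at an unadjusted p under 0.05, with 1.88% of all genes called) and 4 in 14B3 (8.57%). Between 1 and 5 days the counts were 9 in 9A1 (9.89%) and 6 in 14B3 (6.91%). These counts moved with single arrays. The 5 day count in 9A1 was 7 without basal 9A1 replicate 2 and 8 and 5 without day 5 9A1 replicate 1 and replicate 2. In 14B3 it was 7 and 9 without basal replicate 1 and replicate 2, and 8 without either 5 day array.

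Without 1 array the 1 day count in 9A1 reached 6 (basal 9A1 replicate 1), 1 (basal 9A1 replicate 2) and 7 (day 1 9A1 replicate 1). In 14B3 it was 10 without either basal 9A1 array, 2 and 0 without basal 14B3 replicate 2 and replicate 1, and when replicate 1 or 2 of the day 1 14B3 arrays was absent it was 1 or 0. Between 1 and 5 days it was 4 in 9A1 without day 5 9A1 replicate 2. In 14B3 it was 11 without either basal 9A1 array and 0 without any 1 of its day 1 or day 5 arrays. The model shares 1 estimate of the spread, and the 9A1 replicates differed more than those of 14B3, so calls within a line are not a comparison of the lines.

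The lines themselves were set against each other directly. Between 9A1 and 14B3 limma called 0 ABC genes over the mean of the cultures (5 at an unadjusted p under 0.05, with 0.272% of all genes called). It also called 0 in basal culture (6 unadjusted, 0.019% of all genes), at 1 day (6 unadjusted, 0% of all genes) and at 5 days (2 unadjusted, 0.247% of all genes). The difference between the lines in the response was called for 0 members at 1 day (4 unadjusted, 0% of all genes) and 0 at 5 days (1 unadjusted, 0.038% of all genes). Some settings with 1 array left out did call members between the lines. Leaving out basal 9A1 replicate 2 did so over the cultures, in basal culture and for both responses. Basal 9A1 was then replicate 1 alone, the array that stood apart from the other basal arrays. These calls rest on that array and are not read as a difference between the lines. Without day 1 9A1 replicate 1 the counts were 2 over the cultures, 4 at 1 day and 1 for the 1 day response, and without day 1 9A1 replicate 2 there was 1 over the cultures. At 5 days 1 was called without day 5 9A1 replicate 2. Abcc2 rose by 4.43 in 9A1 and 6.91 in 14B3, and Abca1 changed by 0.93 and 2.81, and these differences were not called. For both genes basal 9A1 replicate 1 was the highest basal array.

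**Figure D4:**
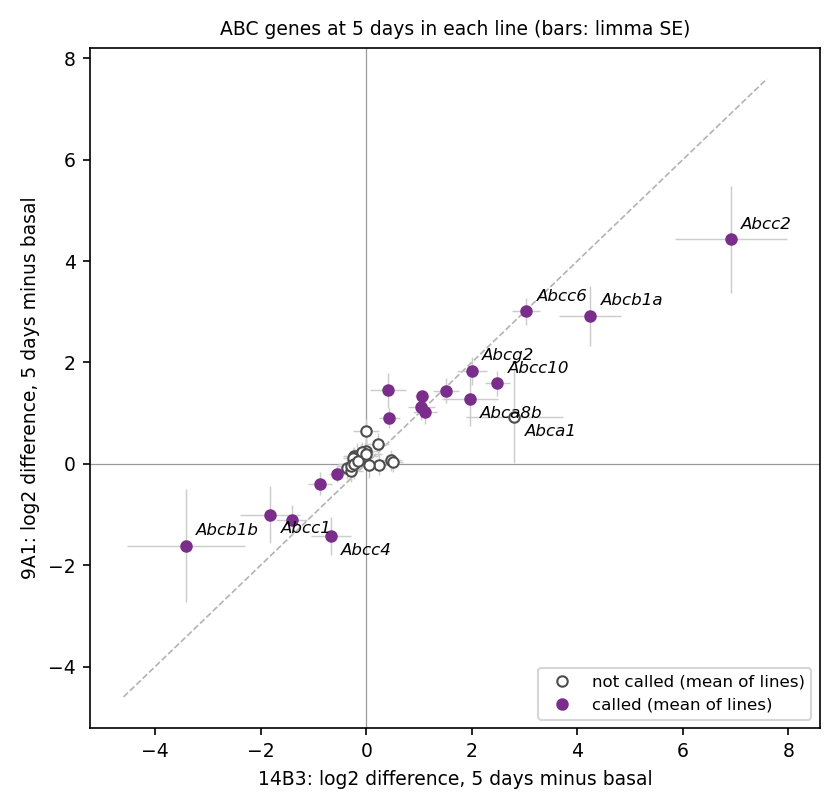
Log2 difference of 5 days minus basal culture in 9A1 (vertical) against 14B3 (horizontal) for the 38 tested ABC genes, with limma standard errors as bars and the line of equal change dashed; filled points are called over the mean of both lines. Abcc6 lies on the line (3.01 and 3.03), while Abcc2 (4.43 and 6.91) and Abcb1a (2.92 and 4.25) lie below it.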

How the data were processed

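Levels are the log2 values that the authors deposited, one per probe set and array, from biotin-labelled total RNA. Per the submitters' processing notes, they used RMA under R 2.3.1. RMA corrects background, normalises the arrays to one another and combines probes, which hides changes in total RNA. The deposited values still differ in distribution between arrays, with SDs from 2.13 to 2.33. The table held 45101 probe sets with no detection calls, and 0 columns of values were left unmapped. By the platform annotation, 34945 probe sets named 1 gene, 932 named several, and 9224 named none or were controls. The last 2 kinds were left out. RefSeq GRCm38 gave positions.

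One limma 3.58.1 model in R 4.3.3, with 6 group means and a trended prior variance, was fitted to genes at log2 5 or more on at least 2 arrays, with 6 residual degrees of freedom. It was tested on simulated data. In total 15 contrasts were tested, each adjusted over all genes tested by Benjamini-Hochberg. Comparisons with basal culture share its arrays. Promoters were searched with Python 3.11.15.

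Members, role groups and gene lists were chosen with earlier results of these data known. Text names the 8 largest called rises and falls at 5 days, the 4 largest at 1 day and from 1 to 5 days, called line differences and interactions, a panel of 21 genes, the member of highest mean in each role, and the 2 largest called changes each way of the other lists. Genes outside it are stated as such or belong to a count of 5 or fewer. Alternatives were no filter, a floor of 6, averaged probe sets, quantile normalisation, median centring, array weights, no variance trend, a replicate block, only the groups compared, each array left out, and 2 arrays left out together.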

Additional observations from a re-analysis of the deposited data

Results flagged for a closer look

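For 25 named ABC genes, each of the 3 cultures was searched for an array far from the other 3, which makes 75 groups of 4 arrays. The test of the gap at the 95% level flagged 6 of them, and chance flags about 1 in 20 groups. In 4 of them, basal 9A1 replicate 1 lay apart from the other basal arrays. Abcb1b lay at 6.20 on it (9.02 to 9.52 on the others), Abcc1 at 9.20 (10.8 to 11.0), Abce1 at 10.6 (11.5 to 11.6) and Abcc2 at 9.64 (4.75 to 5.24). For all 4 genes this array lay towards the levels at 5 days, and the results without it are given beside each gene. The 2 remaining flags were small, with Abcc8 at 6.78 on basal 14B3 replicate 1 (6.34 to 6.38 on the others) and Abcf3 at 9.08 on basal 14B3 replicate 2 (8.76 to 8.82). No cause was tested.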

How the results depend on the processing

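Of 769 values of single genes under an alternative, 696 stayed on the same side of the threshold, 62 lost the call and 11 gained it. None of the 616 values of called changes took the opposite sign. Of the 153 values of changes that were not called, 11 did, for 4 genes (Abcb4, Abcb8, Abcg1 and Abcc8 at 5 days), all of them within 0.07 of 0. Many of the alternatives leave the log2 change itself as it was, so they could not turn its sign. They are no filter, a floor of 6, array weights, no variance trend, the replicate block and only the groups compared. Leaving out an array outside the comparison likewise leaves the change as it was. Counts of called members moved by more than 1.5 times as follows, and the causes were not tested. Array weights gave 12 calls at 1 day and 17 from 1 to 5 days in 14B3, 5 from 1 to 5 days in 9A1 and 1 between the lines at 5 days. Only the groups compared gave 15 at 1 day and 17 from 1 to 5 days in 14B3 and 0 at 5 days in 9A1, and no value for the mean of the lines, which uses every group. The mean of probe sets gave 0 lower at 1 day. Leaving out basal 9A1 replicate 1 with day 1 9A1 replicate 2 gave 8 higher and 5 lower at 1 day, 5 lower from 1 to 5 days, 8 at 1 day in 9A1, 13 at 1 day and 17 from 1 to 5 days in 14B3, and between the lines 3 over the cultures, 4 at 1 day and 2 at 5 days. With 1 array left out the counts ran at 1 day from 3 to 7 higher and 0 to 4 lower, at 5 days from 11 to 13 and 2 to 7, and from 1 to 5 days from 8 to 12 and 0 to 4. In 9A1 they ran from 0 to 7, 5 to 19 and 4 to 12 in these comparisons, and in 14B3 from 0 to 10, 7 to 17 and 0 to 11. Between the lines they ran from 0 to 4 over the cultures, 0 to 8 in basal culture, 0 to 4 at 1 day and 0 to 1 at 5 days, and for the response from 0 to 5 at 1 day and 0 to 2 at 5 days. The labels do not say whether a replicate number marks a shared batch, and the main model did not use it as a block. Deviations of equal numbers correlated from -0.303 to 0.499 between groups, and 5 of 15 pairs of groups exceeded 0.1. Whether equal numbers share a batch was not tested. With the replicate block 13 members were higher and 6 lower at 5 days, 3 and 1 at 1 day, and 12 and 3 from 1 to 5 days. Levels near 5 have no detection call, which limits the size of changes for Abcc2, Abcb11 and Abca8a.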

Other observations

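The TAP peptide transporters of antigen presentation, Tap1 and Tap2, are ABC proteins that do not carry an Abc symbol in mouse. Of 5 genes of that complex and its partners, 4 were called higher at 5 days and 0 lower. Tap2 lay at 7.72, 8.37, 8.43 and 8.18 at 5 days, against 7.37, 6.93, 6.59 and 6.92 in basal culture, and rose by 1.22 ± 0.20 (adjusted p = 0.00144). No 5 day array overlapped the basal ones. Its partner Tap1 lay at 6.70, 6.99, 6.51 and 6.52 at 5 days, against 6.42, 7.30, 6.21 and 6.39 in basal culture, and changed by 0.10 ± 0.19 (adjusted p = 0.786). Tapbp, the tapasin gene that bridges the transporter to class I molecules, rose by 2.18 ± 0.27, B2m, the class I light chain gene, by 1.27 ± 0.10, and Tapbpl by 1.05 ± 0.17. Already at 1 day Tapbp (1.45) and B2m (0.57) were called, and Tap2 and Tapbpl were not. Tap1, Tap2 and Tapbpl were named after their values were seen.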
